A study of Mus musculus with 13 samples.

Results

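The genes that copy DNA and the genes that divide the cell were described in mouse small cell lung cancer tumours with and without a guide RNA against Kdm6a. They were 42 genes given by name, of 54532 genes in the table. Here they were sorted into 19 genes of S phase and 23 of mitosis, a division that did not come with the names. It places Chek1 and Wee1 under S phase and Ccna2 under mitosis, although other divisions are possible. All 42 were found by name and all 42 passed the filter on low counts. The data were RNA sequencing of 13 tumours, 7 labelled sgKdm6a RPP and 6 labelled sgControl RPP. RPP stands for guide RNAs against Rb1, Trp53 and Rbl2, which both groups carry, in congenic BL6J mice with a Cas9 allele behind a removable stop cassette. The sgKdm6a tumours carry in addition a guide against Kdm6a, the gene of a histone H3 demethylase also called UTX, and the sgControl tumours a control guide. Tumours were untreated, taken at necropsy and flash-frozen. The labels give no age and do not assign tumours to animals. Of the 7 sgKdm6a tumours 6 form 3 pairs with a common number in the title, so some tumours may share an animal, and p-values, which take each as separate, measure only the spread between these samples.

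A dividing cell first makes the enzymes and clamps that copy DNA and the nucleotides they use, and later the cyclins, kinases and motors that separate the chromosomes. S phase genes are switched on by E2F factors, which the retinoblastoma protein, the product of Rb1, and its relative p130, the product of Rbl2, hold back in resting cells. Mitosis genes are held back by the DREAM complex, which contains p130 and binds a promoter element called the cell cycle homology region (CHR). They are later driven through that element by MYBL2 and FOXM1, often beside CCAAT boxes bound by NF-Y. Small cell lung cancer is known for loss of RB1 and for fast division. Because the tumours were measured as bulk RNA, fewer cells of a type and less RNA per cell cannot be told apart.

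The promoters show how the S phase and the mitosis genes differ in sequence. RefSeq promoter windows of GRCm38.p6, running from 250 bases before to 50 bases after the gene start, were matched by symbol for 33 members, of which 15 were S phase and 18 mitosis genes. Ccne2, Mcm4, Gins2, Wee1, Foxm1, Ccna2, Aurkb, Kif20a and Tpx2 were not among them. Chosen for print are 3 mitosis promoters with both a CHR and CCAAT boxes, and 2 S phase promoters with an E2F motif. Sequences run 5′ to 3′ along the gene. Capitals mark the CHR (TTTGAA or TTTAAA), the CCAAT box (CCAAT, or ATTGG on the other strand) and the E2F motif (TTTCCCGC or TTTGGCGC), each searched on both strands.
Cdk1 (chr10:69352863-69353162, minus strand): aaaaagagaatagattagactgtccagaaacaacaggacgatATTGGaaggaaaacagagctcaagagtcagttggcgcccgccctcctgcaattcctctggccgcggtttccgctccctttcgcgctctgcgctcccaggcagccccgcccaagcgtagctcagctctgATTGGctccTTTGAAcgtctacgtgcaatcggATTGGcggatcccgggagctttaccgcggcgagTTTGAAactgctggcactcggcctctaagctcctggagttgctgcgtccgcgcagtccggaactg
Ccnb2 (chr9:70421505-70421804, minus strand): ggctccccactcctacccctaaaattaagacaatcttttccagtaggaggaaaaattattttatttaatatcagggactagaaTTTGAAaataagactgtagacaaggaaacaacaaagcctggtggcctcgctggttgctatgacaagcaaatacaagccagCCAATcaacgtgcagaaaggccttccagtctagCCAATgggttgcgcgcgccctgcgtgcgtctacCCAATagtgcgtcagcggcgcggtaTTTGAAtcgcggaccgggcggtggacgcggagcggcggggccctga
Mki67 (chr7:135716330-135716629, minus strand): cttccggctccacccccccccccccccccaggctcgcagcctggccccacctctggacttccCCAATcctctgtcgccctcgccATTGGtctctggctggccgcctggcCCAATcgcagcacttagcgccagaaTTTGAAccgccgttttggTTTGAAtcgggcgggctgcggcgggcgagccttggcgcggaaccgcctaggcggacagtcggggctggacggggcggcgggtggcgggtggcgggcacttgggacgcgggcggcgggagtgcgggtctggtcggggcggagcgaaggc
Mcm6 (chr1:128359656-128359955, minus strand): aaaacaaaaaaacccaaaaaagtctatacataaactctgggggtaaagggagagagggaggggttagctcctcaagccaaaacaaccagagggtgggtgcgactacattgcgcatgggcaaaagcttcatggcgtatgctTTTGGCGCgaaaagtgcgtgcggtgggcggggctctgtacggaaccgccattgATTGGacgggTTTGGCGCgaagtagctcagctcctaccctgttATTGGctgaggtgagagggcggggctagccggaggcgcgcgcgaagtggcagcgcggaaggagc
Cdt1 (chr8:122567765-122568064, plus strand): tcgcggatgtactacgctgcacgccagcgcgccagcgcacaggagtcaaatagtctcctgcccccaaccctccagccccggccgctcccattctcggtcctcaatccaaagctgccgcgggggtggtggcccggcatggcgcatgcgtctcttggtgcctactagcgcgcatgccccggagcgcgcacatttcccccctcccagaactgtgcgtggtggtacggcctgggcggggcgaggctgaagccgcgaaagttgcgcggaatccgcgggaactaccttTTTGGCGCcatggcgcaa

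A CHR was present in 16 of 18 mitosis promoters (88.9%) and in 4 of 15 S phase promoters (26.7%), against 27.8% of the promoters of 27025 genes. The CCAAT box was present in 16 of 18 mitosis and in 10 of 15 S phase promoters (66.7%), against 37.9% of all. A CHR and a CCAAT box stood together in 15 of 18 mitosis promoters (83.3%), against 10.9% of all. The E2F motif was found in 0 of 18 mitosis promoters and in 7 of 15 S phase promoters (46.7%), against 1.63% of all. The 7 were Cdk2, Mcm3, Mcm5, Mcm6, Mcm7, Cdc6 and Cdt1. A base shared by 2 motifs counts for both, and a match is a description of letters in this window only. Ube2c and Top2a held the most CCAAT boxes, 6 each.

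**Figure D1:**
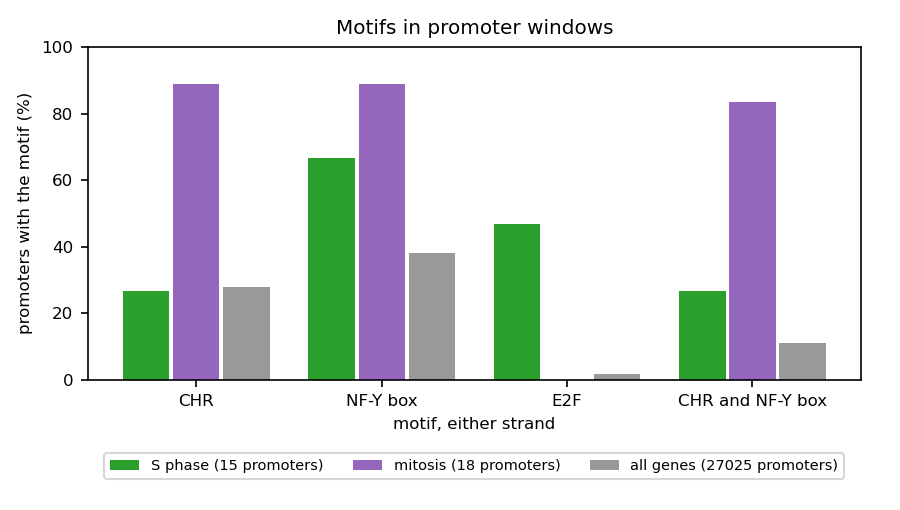
Share of promoter windows (percent, vertical axis) that hold each motif on either strand, for 15 S phase members, 18 mitosis members and 27025 genes, where the NF-Y box is the CCAAT box. The bar for the CHR is at 88.9% for mitosis, 26.7% for S phase and 27.8% for all genes, and the E2F bar is 46.7% for S phase and 0 for mitosis.

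The tables hold between 16835726 and 22910187 counts per tumour, and 3 counts equal 0.131 to 0.178 CPM, the count per unit of library size, a limit that covers counting error only. The lowest count of any member in any tumour was 273. Kdm6a mRNA was at 42.7 to 91.3 CPM in sgKdm6a and at 51.7 to 112 CPM in sgControl tumours, and its log2 fold change was -0.14 (SE 0.22, adjusted p = 0.887 by edgeR). A guide cuts DNA and need not lower the mRNA, so this level does not check the labels. Neuroendocrine markers, which define the labelled cell type, were all detected in every tumour, at a sum of 3738 to 16702 CPM in sgKdm6a and 3178 to 7816 CPM in sgControl tumours.

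The tumour labelled sgControl replicate 6 stood apart from the other 12. It was the lowest of the 13 tumours for 40 of the 42 members, the exceptions being Gins2 and Rrm2. Genes outside the members were low there too. It was the lowest tumour for 8 of 15 neuroendocrine markers and for 5 of 7 genes of cyclin-dependent kinase inhibitors. Its sums of these lists, 3178 and 825 CPM, were the lowest of the 13. The share of all genes lowest in this tumour is not given here. Against the median of the other sgControl tumours its members were lower by a median of 2.31-fold, with log2 differences between -2.10 for Kif11 and -0.73 for Gins2. The members made up 0.85% to 1.20% of all counts in sgKdm6a tumours, 1.01% to 1.13% in the other 5 sgControl tumours and 0.34% in sgControl replicate 6. The same tumour had the highest level of 10 of 10 alveolar type 2 markers, 9 of 10 alveolar type 1, 11 of 13 endothelial, 15 of 16 macrophage, and 12 of 14 fibroblast and pericyte markers. Macrophage markers summed to 405 to 1084 CPM in sgKdm6a tumours, 667 to 1949 CPM in the other 5 sgControl tumours and 22224 CPM in sgControl replicate 6. Alveolar type 2 markers summed to 89.7 to 538 CPM, 325 to 1950.0 CPM and 10615 CPM in the same order of groups. No marker of these lists was at 0 in all tumours, and Lamp3 and Siglecf were at 0 in some. The part of other tissue in the low member levels of this tumour was not tested, so values between genotypes are also given without it.

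**Figure D2:**
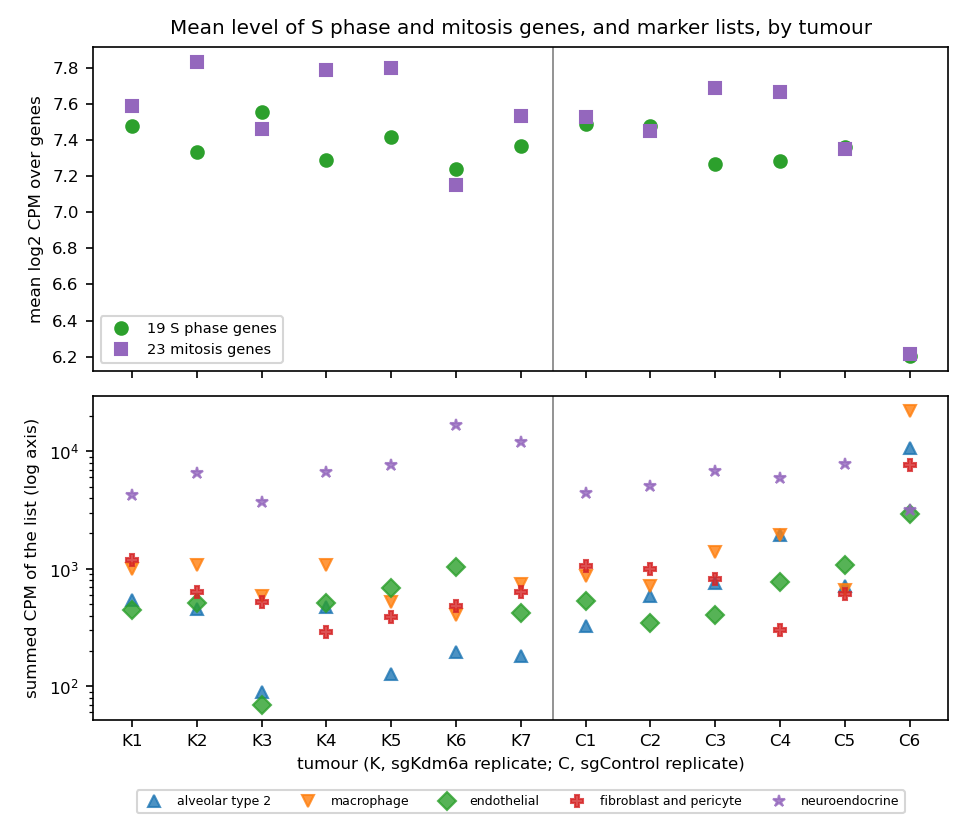
Upper panel, mean log2 CPM over 19 S phase genes (circles) and 23 mitosis genes (squares) in each tumour, with the 7 sgKdm6a tumours (K) left of the 6 sgControl tumours (C). Lower panel, summed CPM of 5 marker lists on a log axis. Replicate 6 of sgControl has phase means of 6.20 and 6.21 and the highest macrophage, alveolar type 2, endothelial, and fibroblast and pericyte sums.

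Apart from sgControl replicate 6, the mean levels of the programme lay closer together, without being equal. The mean log2 CPM over the S phase genes was between 7.24 and 7.56 in sgKdm6a tumours, with a median of 7.37, and between 6.20 and 7.49 in sgControl tumours, with a median of 7.32. Without replicate 6 the lowest sgControl mean was 7.27, so the groups lay within one another. Mitosis genes averaged between 7.15 and 7.84 in sgKdm6a tumours and between 6.21 and 7.69 in sgControl tumours, with a lowest sgControl mean of 7.35 without replicate 6. Replicate 6 of sgKdm6a was the lowest sgKdm6a tumour in both phases, at 7.24 and 7.15 log2 CPM, and had the highest neuroendocrine sum of all, 16702 CPM. The balance of the phases varied between tumours. The S phase mean minus the mitosis mean was -0.50 log2 units in sgKdm6a replicates 2 and 4 and -0.39 in replicate 5, and -0.42 and -0.38 in sgControl replicates 3 and 4. It was 0.09 in sgKdm6a replicates 3 and 6. The 2 means are over different genes, so a value of 0 does not mark equal phases and only differences between tumours can be read. Low values were found in both genotypes, and the sgControl values, -0.42 to 0.03, lay within the sgKdm6a range of -0.50 to 0.09. Members that departed together with their chromosomal neighbours, such as Gins2, Cdt1 and Kif11 (below), enter these means. Their part in the balance was not tested.

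Between genotypes, no member passed the test. At an edgeR adjusted p under 0.05, 0 of 42 members were called, as were 0 of the 16575 genes tested (0%). The lowest adjusted p of a member was 0.469, for Cdk1. At an unadjusted edgeR p under 0.05, 1 member was higher in sgKdm6a tumours, against 3.18% of all genes, and 0 members were lower, against 6.97% of all genes. That is 1 of 42, a share near the background. Of the members, 36 of 42 had a log2 fold change above 0, against 49.7% of all genes, with a median of 0.24 (all genes, -0.0017). No member had a log2 fold change beyond 0.5 in either direction, with standard errors from 0.17 to 0.39. The groups overlapped for all 42 members, where 0.284% of all genes have groups that do not overlap. Without sgControl replicate 6 the median was 0.094 and 29 of 42 members were above 0, against 51.9% of all genes. The number of genes lower at an unadjusted p under 0.05 fell from 1156 of 16575 to 469 of 16831 without that tumour. The share of 6.97% thus rests largely on it. With quality weights per tumour (limma-voom) the median was 0.087 and 31 of 42 members were above 0, against 48.8% of all genes. Y-linked genes summed to at most 0.27 CPM in 6 of 7 sgKdm6a tumours and to 346 CPM in replicate 3, and to 0 CPM in sgControl replicate 4 and 153 to 210.0 CPM in the other 5 sgControl tumours. Y-linked RNA and genotype were thus largely aligned and cannot be told apart here. With a term for Y-linked genes the median was 0.11 and 30 of 42 members were above 0, against 47.7% of all genes. With a term for the tissue markers in the fit the median was -0.10 and 14 of 42 members were above 0, against 49% of all genes. The term, in log2 CPM, was 2.64 to 4.73 in sgKdm6a tumours, 4.31 to 4.81 in 5 sgControl tumours and 8.11 in sgControl replicate 6. Tissue markers and genotype were thus partly aligned, and this fit cannot fully separate them. In that fit 0 members were lower at an unadjusted p under 0.05, against 3.64% of all genes. DESeq2 called 83 genes at an adjusted p under 0.05, 0.412% of those given one, and 0 members. Within the lower number series of the titles (2 sgKdm6a and 3 sgControl tumours) the median was 0.11. It was 0.39 within the higher series (5 and 3), which holds sgControl replicate 6. The series were read from the title numbers alone, and the labels name no batch. In the lower series the titles of the 3 sgControl tumours carry an added prefix that no other title has. A series is thus not known to be a batch.

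**Figure D3:**
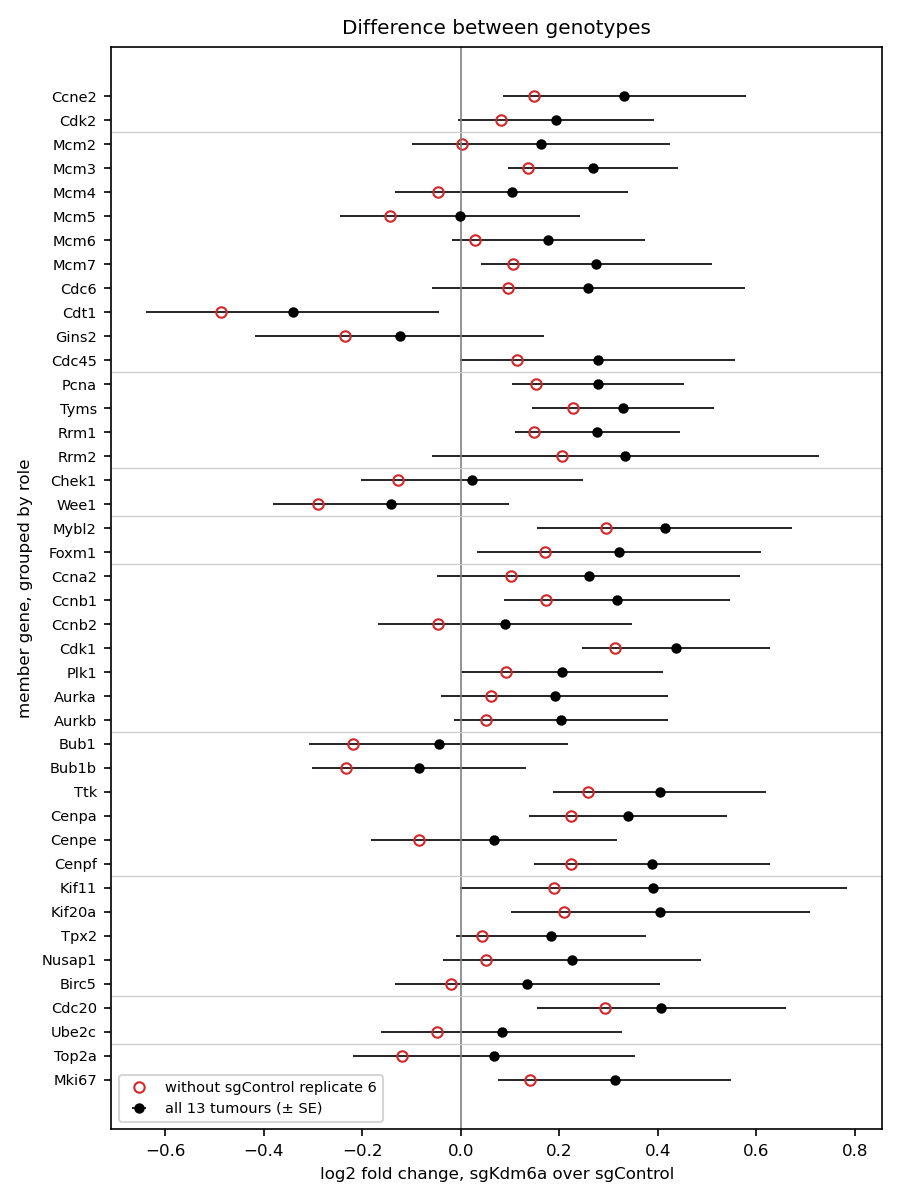
Log2 fold change of sgKdm6a over sgControl (horizontal axis) for the 42 members, by role from top to bottom. Filled points with bars are the edgeR values of all 13 tumours ± SE, and open circles are the values without sgControl replicate 6, which lie left of the filled point for every member, with a median of 0.094 against 0.24.

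Cyclin E and its kinase start S phase. Ccne2, cyclin E2, was at 188 CPM in the lowest, 202 in the median and 267 in the highest sgKdm6a tumour, and at 56.3, 191 and 226.8 CPM in sgControl tumours. The groups overlapped, with 2 sgKdm6a tumours above every sgControl tumour. Its log2 fold change was 0.33 (SE 0.25, adjusted p = 0.697 by edgeR), and 0.15 without sgControl replicate 6. Cdk2, the kinase that cyclin E activates, was at 107, 117 and 210.4 CPM in sgKdm6a and at 68.9, 128 and 134 CPM in sgControl tumours. Its highest value was that of sgKdm6a replicate 5, and the sgKdm6a median was below the sgControl median although the log2 fold change was 0.19 (SE 0.20, adjusted p = 0.799 by edgeR; 0.082 without sgControl replicate 6).

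The licensing genes load and open the helicase that unwinds DNA. Per length, the 6 helicase subunits Mcm2 to Mcm7 were similar to each other, with means over all tumours from 54.4 FPKM for Mcm4 to 81.9 FPKM for Mcm6 (FPKM, fragments scaled by gene length and library size). Of the 10 licensing genes 7 had a log2 fold change above 0, with a range of -0.34 to 0.28. Mcm3 was at 282, 348 and 385 CPM in sgKdm6a and at 148, 298 and 334 CPM in sgControl tumours, with 4 of 7 sgKdm6a tumours above every sgControl tumour. Its log2 fold change was 0.27 (SE 0.17, adjusted p = 0.645 by edgeR), and 0.14 without sgControl replicate 6. Mcm7 was at 241, 279.9 and 426 CPM in sgKdm6a and at 95.6, 282 and 312 CPM in sgControl tumours, so that the medians were nearly equal. The log2 fold change of Mcm7 was 0.27 (SE 0.23, adjusted p = 0.744 by edgeR), and 0.11 without that tumour.

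At the low end of the licensing genes were Cdt1 and Gins2, which are named after their values were seen. Cdt1, which brings the helicase to origins, was at 60.6, 93.7 and 115 CPM in sgKdm6a and at 52.6, 113 and 175 CPM in sgControl tumours. Its log2 fold change, -0.34 (SE 0.30, adjusted p = 0.750 by edgeR), was the lowest of all members, and it was -0.49 without sgControl replicate 6. Gins2, a subunit of the GINS complex that activates the helicase, was at 13.9, 20.4 and 39.8 CPM in sgKdm6a and at 17.3, 28.4 and 40.2 CPM in sgControl tumours (log2 fold change -0.12, SE 0.29; -0.23 without sgControl replicate 6). The sgKdm6a values fell into a low set of 4 tumours, 13.9 to 20.4 CPM, and 3 tumours at 36.3 to 39.8 CPM, with none between. Gins2 had the lowest level per length of all members, 6.26 FPKM. It overlaps the opposite-strand gene Gse1, which had 32608 counts over all tumours against 6990 of Gins2, and the library kit did not keep the strand.

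The sliding clamp and the nucleotide genes supply the replication fork. Pcna, the clamp that holds polymerases on DNA, had the highest level per length of all members, 237 FPKM, and was at 582 to 833 CPM in sgKdm6a and 297 to 642 CPM in sgControl tumours. Tyms, thymidylate synthase, was at 102, 152 and 181 CPM in sgKdm6a and at 71.3, 121 and 131 CPM in sgControl tumours. Its log2 fold change was 0.33 (SE 0.18, adjusted p = 0.579 by edgeR), 0.23 without sgControl replicate 6 and 0.25 with the tissue term. Rrm1, the large subunit of ribonucleotide reductase, was among the steadiest members. It was at 375, 445 and 511 CPM in sgKdm6a and at 195, 396 and 419 CPM in sgControl tumours, and spanned 0.47 log2 units over the 12 tumours other than sgControl replicate 6. The log2 fold change of Rrm1 was 0.28 (SE 0.17, adjusted p = 0.615 by edgeR), and 0.15 without that tumour. Rrm2, the small subunit, spanned 2.29 log2 units over the same 12 tumours, the widest of the members, at 157 to 583 CPM in sgKdm6a and 119 to 394 CPM in sgControl tumours.

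The checkpoint kinases CHK1 and WEE1 hold back entry into mitosis. Wee1 was at 54.6, 63.2 and 96.8 CPM in sgKdm6a and at 35.0, 76.1 and 115 CPM in sgControl tumours, and the log2 fold change was -0.14 (SE 0.24, adjusted p = 0.892 by edgeR). Chek1 was at 38.3, 51.2 and 71.9 CPM in sgKdm6a and at 22.6, 54.3 and 66.0 CPM in sgControl tumours, and the log2 fold change was 0.023 (SE 0.23, adjusted p = 0.987 by edgeR). Both had a lower median in sgKdm6a tumours, and without sgControl replicate 6 both log2 fold changes were below 0, at -0.29 and -0.13. The groups overlapped for both kinases.

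Mybl2 and Foxm1 encode the factors that drive the mitosis genes. Mybl2 was at 53.5, 77.2 and 122 CPM in sgKdm6a and at 34.0, 58.1 and 93.8 CPM in sgControl tumours. Its log2 fold change was 0.41 (SE 0.26, adjusted p = 0.635 by edgeR), and 0.29 without sgControl replicate 6. Foxm1 was at 119, 165 and 242 CPM in sgKdm6a and at 62.2, 133 and 214 CPM in sgControl tumours. The log2 fold change was 0.32 (SE 0.29, adjusted p = 0.760 by edgeR) and 0.17 without that tumour, with 3 of 7 sgKdm6a tumours above every sgControl tumour.

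Mitotic cyclins and kinases trigger division, and 7 of 7 had a log2 fold change above 0, from 0.090 for Ccnb2 to 0.44 for Cdk1. Cdk1, the kinase that drives entry into mitosis, was at 217, 268 and 348 CPM in sgKdm6a and at 112, 211 and 262 CPM in sgControl tumours. The groups overlapped, with 4 of 7 sgKdm6a tumours above every sgControl tumour. For Cdk1 the log2 fold change was 0.44 (SE 0.19, adjusted p = 0.469 by edgeR), and without sgControl replicate 6 it was 0.31 and no longer past an unadjusted 0.05. Ccnb1, cyclin B1, the partner of CDK1, was at 174, 231 and 316 CPM in sgKdm6a and at 92.1, 200.3 and 257 CPM in sgControl tumours. The log2 fold change of Ccnb1 was 0.32 (SE 0.23, adjusted p = 0.687 by edgeR), and 0.17 without that tumour. The others, Ccna2, Ccnb2, Plk1, Aurka and Aurkb, had log2 fold changes between 0.090 and 0.26.

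The kinetochore and spindle checkpoint genes attach chromosomes to the spindle and delay anaphase until they are attached, and 4 of 6 had a log2 fold change above 0. Ttk, the checkpoint kinase MPS1, was at 55.2, 72.2 and 103 CPM in sgKdm6a and at 25.9, 59.3 and 75.2 CPM in sgControl tumours. The log2 fold change of Ttk was 0.40 (SE 0.22, adjusted p = 0.552 by edgeR), and 0.26 without sgControl replicate 6. Cenpa, the histone H3 variant of centromeres, was at 102, 146 and 189.9 CPM in sgKdm6a and at 65.5, 112 and 158 CPM in sgControl tumours, and the log2 fold change was 0.34 (SE 0.20, adjusted p = 0.610 by edgeR) and 0.22 without that tumour. For both genes 3 of 7 sgKdm6a tumours were above every sgControl tumour. The checkpoint genes Bub1 and Bub1b were on the other side of 0, with log2 fold changes of -0.045 and -0.085. Cenpe and Cenpf had 0.067 and 0.39.

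Among the spindle genes 5 of 5 had a log2 fold change above 0, from 0.14 for Birc5, which encodes survivin, to 0.41 for Kif20a. Kif20a, a kinesin of cytokinesis, was at 85.5, 120.4 and 162 CPM in sgKdm6a and at 24.8, 100.3 and 123 CPM in sgControl tumours. Kif20a had a log2 fold change of 0.41 (SE 0.30, adjusted p = 0.700 by edgeR), and 0.21 without sgControl replicate 6. Kif11, the kinesin that pushes spindle poles apart, was at 133, 341 and 539 CPM in sgKdm6a and at 65.7, 251 and 440.0 CPM in sgControl tumours. Kif11 had a log2 fold change of 0.39 (SE 0.39, adjusted p = 0.795 by edgeR), and 0.19 without that tumour, and spanned 2.01 log2 units over the 12 tumours. Tpx2, a spindle assembly factor, spanned 0.66 and had a log2 fold change of 0.18, and Nusap1, a spindle microtubule protein, had 0.23.

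Cdc20 and Ube2c act with the anaphase promoting complex, which marks cyclin B for destruction. Cdc20 was at 133, 279.8 and 373 CPM in sgKdm6a and at 118, 202 and 296 CPM in sgControl tumours. Cdc20 had a log2 fold change of 0.41 (SE 0.25, adjusted p = 0.631 by edgeR), and 0.29 without sgControl replicate 6. Ube2c was at 104, 146 and 212 CPM in sgKdm6a and at 74.0, 148 and 191 CPM in sgControl tumours, and the log2 fold change was 0.083 (SE 0.24, adjusted p = 0.947 by edgeR) and -0.049 without that tumour. Cdc20 was among the highest members per length, at 119 FPKM.

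Top2a untangles replicated chromosomes, and Mki67 encodes the marker by which pathologists grade proliferation. Mki67 was at 928, 1220.4 and 1500.2 CPM in sgKdm6a and at 367, 1100.5 and 1263 CPM in sgControl tumours, and from 993 CPM upward in sgControl without replicate 6. The log2 fold change of Mki67 was 0.31 (SE 0.24, adjusted p = 0.702 by edgeR), 0.14 without sgControl replicate 6 and -0.025 with the tissue term. Top2a was at 729, 1234 and 1477 CPM in sgKdm6a and at 349, 1146 and 1642 CPM in sgControl tumours, and the log2 fold change was 0.067 (SE 0.29, adjusted p = 0.966 by edgeR). Without sgControl replicate 6 its log2 fold change was -0.12, and the highest tumour of all for Top2a was a sgControl tumour.

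The remaining members were Mcm2, Mcm4, Mcm5, Mcm6, Cdc6 and Cdc45, with log2 fold changes between -0.0014 for Mcm5 and 0.28 for Cdc45, each with overlapping groups. Cdc6 loads the helicase together with CDT1, and CDC45 is part of the active helicase. As with Gins2, Cdc45 overlaps an opposite-strand gene with more counts than its own, Ufd1 with 23884 against 20827. In all, 15 members overlap a gene on the other strand, and none of the members lies on the X chromosome.

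**Figure D4:**
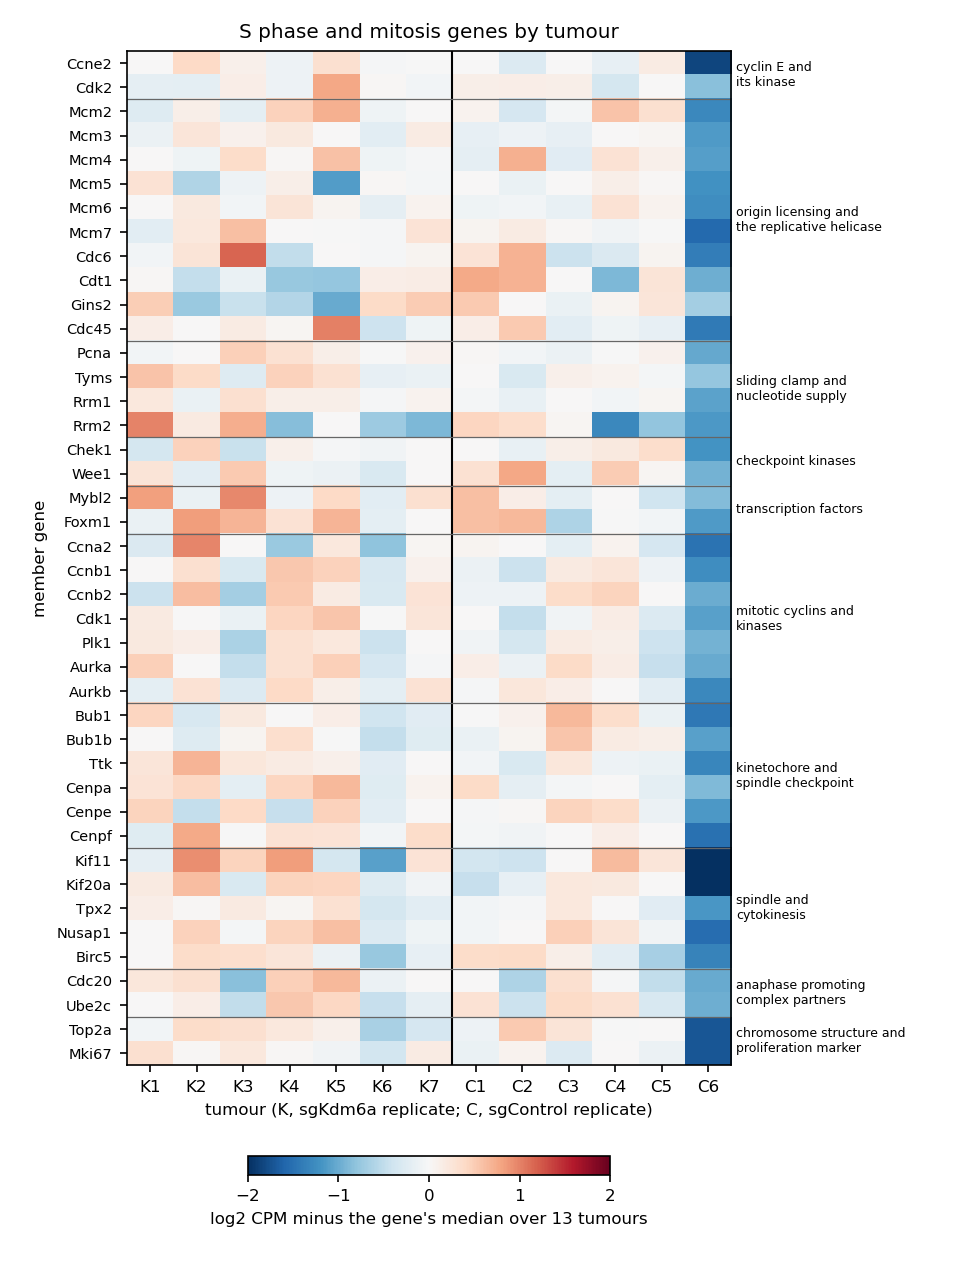
Log2 CPM of each member minus its median over 13 tumours (colour, scale ending at -2 and 2) by tumour, with the 7 sgKdm6a tumours (K) left of the 6 sgControl tumours (C) and genes grouped by role. Replicate 6 of sgControl is low for nearly every gene, sgKdm6a replicate 6 is the lowest of the other 12 tumours for 14 of 42 members, and some departures touch single genes, such as Gins2 in 4 sgKdm6a tumours and Kif11 in tumours of both groups.

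Other genes of the same processes gave counts close to those of the members. Of 40 other S phase genes, 36 had a log2 fold change above 0, with a median of 0.21 (31 of 40 and 0.073 without sgControl replicate 6, and a median of -0.13 with the tissue term), and 0 were past an unadjusted edgeR p of 0.05 in either direction. Of 45 other mitosis genes, 42 were above 0, with a median of 0.24 (32 of 45 and 0.10 without sgControl replicate 6, and a median of -0.065 with the tissue term). At an unadjusted p under 0.05, 3 of the 45 were higher in sgKdm6a tumours, against 3.18% of all genes, and 0 were lower, against 6.97%. In both lists 0 genes had an adjusted p under 0.05. Aspm, a spindle pole gene needed for symmetric division of neural progenitors, had the lowest p. It was at 269, 363 and 733 CPM in sgKdm6a and at 51.8, 177 and 283 CPM in sgControl tumours, and the log2 fold change was 1.22 (SE 0.34, adjusted p = 0.419 by edgeR), and 1.03 without sgControl replicate 6. The other 2 were Dlgap5, a spindle factor (log2 fold change 0.51, SE 0.22; 0.38 without that tumour), and the X-linked kinesin Kif4 (0.64, SE 0.28; 0.49). The spindle checkpoint gene Mad2l1 came next by p, with 0.39 (SE 0.21). Among the S phase genes of lowest p, log2 fold changes were 0.35 (SE 0.18) for the clamp loader gene Rfc3 and -0.50 (SE 0.29) for the GINS subunit gene Gins3. Gins3 lies on chromosome 8, as do Gins2 and Cdt1.

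Inhibitors of the cyclin-dependent kinases were a further list. Of 7 such genes 6 had a log2 fold change above 0, with a median of 0.21 (5 of 7 and 0.073 without sgControl replicate 6, and a median of -0.013 with the tissue term). At an unadjusted edgeR p under 0.05, 1 of 7 was higher in sgKdm6a tumours, against 3.18% of all genes, and 1 of 7 lower, against 6.97%. Cdkn2d, the gene of p19INK4d, was at 95.6, 170.1 and 246 CPM in sgKdm6a and at 64.4, 123 and 141 CPM in sgControl tumours (log2 fold change 0.54, SE 0.23, adjusted p = 0.457 by edgeR). Cdkn2b, the gene of p15INK4b, was at 4.44, 8.98 and 10.3 CPM in sgKdm6a and at 4.32, 12.7 and 36.0 CPM in sgControl tumours (log2 fold change -0.94, SE 0.43, adjusted p = 0.483 by edgeR). Without sgControl replicate 6 these values were 0.42 and -0.48. Cdkn1b and Cdkn1c, the genes of p27 and p57, had 0.36 and 0.54.

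How far the members moved together was described by correlation over tumours after removal of the genotype means. Over 861 pairs of members the median Pearson r was 0.63 with all 13 tumours (Spearman 0.38), and 0.15 without sgControl replicate 6, beside -0.0029 and -0.0017 for pairs of all genes. No p is given, since the value over all 13 tumours rests on this 1 tumour. The median was 0.72 among mitosis genes (0.37 without that tumour) and 0.57 among S phase genes (0.080). Between the phases it was 0.59 (0.042). Tpx2 and Cenpa followed the mean of the other members most closely among the 12 tumours, at r of 0.80 and 0.73. Gins2, Cdt1 and Mcm5, which all lie on chromosome 8, ran against it, at -0.65, -0.50 and -0.48. Outside the members, the genes most like their mean over 13 tumours were Sgo2a, Kif14, Cit, Rad54b, Ckap2l, Fip1l1, Srsf7, Arhgap11a, Kif22 and Nudt10, at r of 0.949 to 0.968. Over the 12 tumours their r was between 0.43 for Nudt10 and 0.83 for Cit.

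Single members departed from the programme in single tumours together with their chromosomal neighbours, a pattern looked for after the data were seen. For each member the neighbours were the other expressed genes within 10 Mb on either side, and their median deviation in a tumour was set beside that of the member. There were 54 combinations of member and tumour in which the neighbours stood at least 0.3 log2 units from 0. In 51 of them (94.4%) the member stood on the same side, against 83.1% of 14362 such combinations over all genes. Without sgControl replicate 6 it was 49 of 52 (94.2%), against 84.5%. Genes in a window share their neighbours, so these combinations are not independent and no test was made. Kif11, Gins2 and Cdt1 supply many of the member combinations, Gins2 and Cdt1 from the same stretch, and many members supply none. The share thus does not describe the members as a set.

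Kif11 gives the widest example, on chromosome 19 (37376403 to 37421859 in mm10). Its neighbours were at -0.45, -0.47 and -0.40 log2 units in sgKdm6a replicates 1, 5 and 6, where Kif11 was at 249, 222.5 and 133 CPM. They were at 0.65, 0.44, 0.50 and 0.34 in replicates 2, 3, 4 and 7, where Kif11 was at 539, 385, 506 and 341 CPM. In sgControl replicates 1, 2 and 3 the neighbours were at -0.46, -0.44 and -0.35 and Kif11 at 219, 211 and 283 CPM, and in replicates 4 and 5 at 0.52 and 0.44 and Kif11 at 440.0 and 334 CPM. The 6 tumours with low neighbours were thus all below the 6 with high ones. In sgControl replicate 6 the neighbours were at 0 and Kif11 at 65.7 CPM.

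Gins2 and Cdt1 lie close together near the end of chromosome 8 (from 120578633 and from 122568015 in mm10), beyond Rbl2, which the RPP guides target (91070057 to 91123844). Over the 237 expressed genes between Rbl2 and the chromosome end, the median deviation was -0.41, -0.60, -0.54 and -0.62 in sgKdm6a replicates 2, 3, 4 and 5, and -0.57 in sgControl replicate 4. It was between 0 and 0.37 in the other 3 sgKdm6a and between 0.15 and 0.35 in the other 5 sgControl tumours. Gins2 was at 16.6, 20.4, 18.6 and 13.9 CPM in those sgKdm6a tumours and at 28.9 CPM in sgControl replicate 4. In that sgControl tumour Gins2 was not low, since the sgControl median was 28.4 CPM, although its neighbours were at -0.61. Cdt1 was at 74.1, 93.7, 61.1 and 60.6 CPM in the same sgKdm6a tumours and at 55.6 CPM in that sgControl tumour. The 371 genes on the other side of Rbl2 had medians between -0.064 and 0.10 in all tumours but sgKdm6a replicate 2, at -0.66. Low values were not limited to the stretch beyond Rbl2 in every tumour. In sgKdm6a replicate 5 the 75 genes between 80 and 90 Mb were at -0.80. In replicate 3 the 8 and 33 genes between 50 and 60 and between 60 and 70 Mb were at -1.13 and -0.56. Mcm5, on that other side, was at 189 CPM in sgKdm6a replicate 2, but at 132 CPM in replicate 5, where its neighbours were at -0.15.

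On other chromosomes the pattern touched up to 3 tumours in the examples that follow. Mcm4 and Cdc45 share a stretch of chromosome 16, whose genes were at 0.48 in sgKdm6a replicate 5 and 0.34 in sgControl replicate 2. These 2 tumours had the highest values of both genes, with Cdc45 at 158 and 113 CPM and Mcm4 at 296 and 322 CPM. Cdk2 was at 210.4 CPM in sgKdm6a replicate 5, where its neighbours on chromosome 10 were at 0.46. Cenpe, a kinetochore motor on chromosome 3, was at 105 and 107 CPM in sgKdm6a replicates 2 and 4, with neighbours at -0.68 and -0.49. Rrm2 on chromosome 12 was low with its neighbours in sgKdm6a replicates 4 and 7 and sgControl replicate 4 (162, 157 and 119 CPM). It was also low without them in sgKdm6a replicate 6 (178 CPM, neighbours at 0.17) and sgControl replicate 5 (169.7 CPM, neighbours at 0). DNA copy number was not measured in these data, and its part was not tested.

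**Figure D5:**
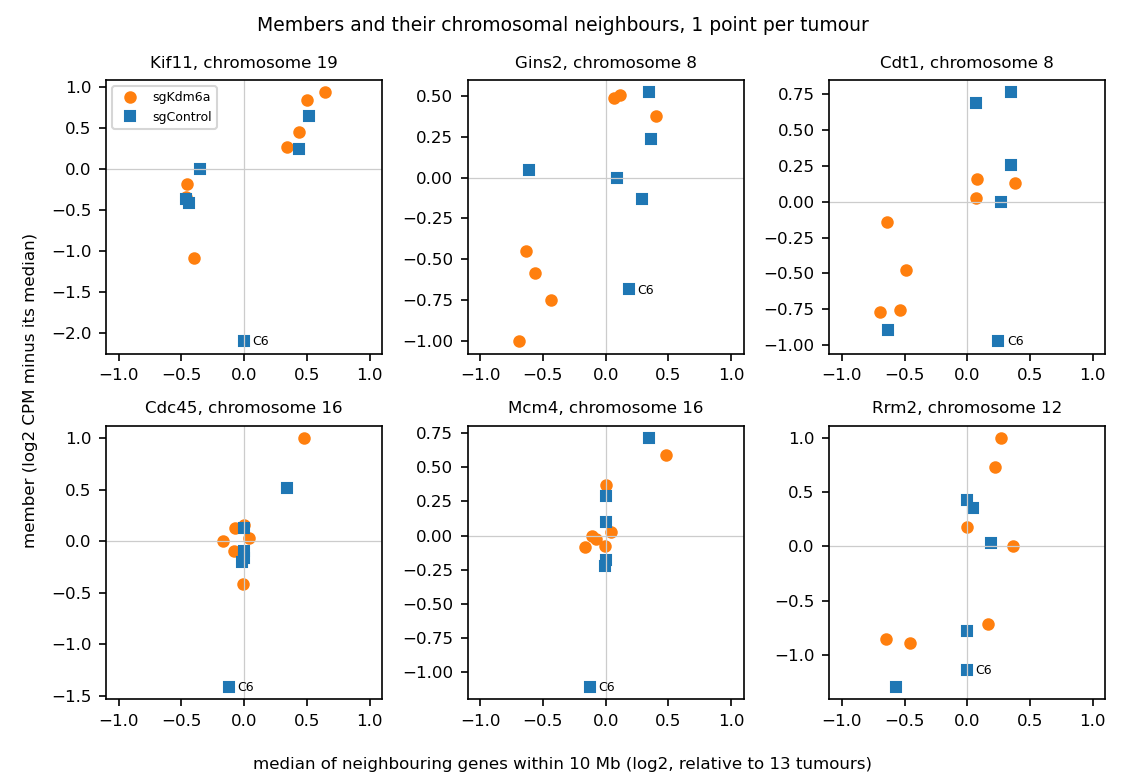
Deviation of 6 members (vertical axis, log2 CPM minus the gene's median) against the median deviation of expressed neighbours within 10 Mb (horizontal axis, log2), 1 point per tumour, sgKdm6a as circles and sgControl as squares, with sgControl replicate 6 marked C6. For Kif11 the 6 tumours with neighbours near -0.4 lie below the 6 with neighbours above 0.3, and for Cdc45 and Mcm4 the same 2 tumours are highest on both axes.

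The difference between genotypes was also taken relative to the neighbours. On mean log2 CPM, 37 of 42 members were higher in sgKdm6a than in sgControl tumours, and 40 of 42 after the median of the neighbours was subtracted in each tumour, with medians of 0.28 and 0.27. The difference of Cdt1 was 0.14 with the subtraction and -0.23 without it, and that of Gins2 was 0.16 and -0.20. Without sgControl replicate 6 the counts were 27 of 42 and, after subtraction, 31 of 42, with medians of 0.060 and 0.082, and Cdt1 and Gins2 were at -0.081 and 0.0094 after subtraction. The phase means without that tumour differed by 0.0055 for S phase and 0.058 for mitosis, against 0.20 and 0.28 with it. No test was made of these values. The same counts over all genes are not given, so the change with subtraction cannot be set against a background.

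The 3 pairs of sgKdm6a tumours that share a title number differed from each other by a mean of 0.28 to 0.48 log2 units over the members. Other pairs of sgKdm6a tumours differed by 0.29 to 0.60 and pairs of sgControl tumours by 0.25 to 1.30. The largest sgControl differences were those with replicate 6. The medians were 0.34 for pairs with a shared number and 0.42 for other pairs of sgKdm6a tumours, and over all genes the correlation of tumours with a shared number was estimated at 0.25. The ranges overlapped, and with 3 such pairs no test was made.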

How the data were processed

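Libraries were not stranded and were read from both ends, per the labels' protocols. The mm10 build and the tools STAR and DESeq2 are named in the submitters' processing notes. Which program counted the reads, and on which annotation, is not given in the sources used here. The authors deposited raw counts per gene, with gene names, and FPKM, in which the count is divided by gene length and by 1 constant per tumour (0.883 to 1.12 times its total). No 2 tumours were identical, and 41 of 42 members had the same coordinates in GENCODE M21.

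Groups come from the genotype label, 7 sgKdm6a and 6 sgControl tumours, with replicates numbered in accession order, so that numbers pair no tumours. Total counts were 16835726 to 22910187. Tests used edgeR 4.0.16 under R 4.3.3, with the quasi-likelihood F test across 16575 genes, after filterByExpr, TMM scaling and robust dispersions, with Benjamini-Hochberg adjustment over all of them and a threshold of 0.05. The standard error was computed as the size of the log2 fold change over the square root of F. A prior count of 2 was added for log2 CPM, and all CPM are on TMM-scaled sizes except the detection limit. FPKM were used only to compare levels between genes and in a pair of alternatives.

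The members and the gene lists were chosen with earlier results of these data known. Named with full statistics were the 2 members of lowest unadjusted p in each of 10 role groups, and Cdt1 and Gins2, chosen after their values were seen. From the other lists up to 4 genes of lowest p were named, of which some are not reported here, with the 10 genes most correlated with the mean of the members. Neighbours were expressed genes (mean log2 CPM of at least 3) within 10 Mb, a choice made after the data were seen. Promoter windows are from RefSeq, and the window listed first was used where a gene had several. Alternatives were DESeq2 1.42.0, limma 3.58.1 (voom with quality weights, a correlation of shared title numbers, and log2(FPKM + 1) or log2(FPKM + 0.1)), other size factors and filters, terms for title series, tissue markers and Y-linked genes, fits within title series, and each tumour left out. The scripts were tested on simulated data with known changes. The edgeR test recovered 14 of 100 genes changed by 1 log2 unit and 49 of 100 changed by 2. It called 4 unchanged genes, and 0 genes when nothing was changed. The changed genes were drawn at random from all genes tested, so these rates are not those of the members. Differences as small as those of the members were not simulated, and they can go uncalled.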

Additional observations from a re-analysis of the deposited data

Results flagged for a closer look

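In 23 of 90 sets of values, 1 per genotype for each gene, each phase mean and the difference of the phase means, 1 tumour lay further from the others than Dixon's 95% limit allows, which by chance happens in about 1 in 20 sets. The sets share tumours, and the phase means hold the same genes, so the sets are not independent. The count of 23 therefore cannot be set against that rate. Of these 23 sets, 21 were flagged for sgControl replicate 6, which is 1 tumour counted repeatedly. It was the outlying lowest sgControl tumour for 19 members, in log2 CPM at 5.82 for Ccne2, 7.21 for Mcm3, 6.95 for Mcm5, 7.46 for Mcm6, 6.58 for Mcm7, 4.89 for Cdc45, 8.22 for Pcna, 7.61 for Rrm1, 4.50 for Chek1 and 6.72 for Ccna2. It was at 5.59 for Aurkb, 4.70 for Ttk, 6.05 for Cenpe, 7.03 for Cenpf, 4.64 for Kif20a, 6.95 for Tpx2, 6.21 for Nusap1, 8.45 for Top2a and 8.52 for Mki67. The S phase mean of 6.20 and the mitosis mean of 6.21 of that tumour were outlying too. The other 2 were in sgKdm6a replicate 5, which was the outlying highest sgKdm6a tumour for Cdk2, at 7.72 log2 CPM, and for Cdc45, at 7.31 log2 CPM. The neighbours of both genes were also raised in that tumour, by 0.46 and 0.48 log2 units. Their part was not tested.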

How the results depend on the processing

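Over 616 comparisons of 22 named genes with 28 alternatives, 583 kept their direction and their side of the threshold, and 33 reversed, each between values within about 1 or 2 standard errors of 0. The cause was not tested. With the tissue term the reversed log2 fold changes were -0.095 for Ccne2, -0.16 for Cdk2, -0.0035 for Mcm3, -0.21 for Mcm7, -0.020 for Rrm1, -0.26 for Chek1, -0.066 for Foxm1, -0.12 for Ube2c, -0.025 for Mki67 and -0.35 for Top2a. With the Y-linked term they were -0.21 for Chek1, -0.077 for Cdc20, -0.24 for Ube2c and 0.047 for Cdt1. Within the lower title series they were -0.31 for Cdk2, -0.071 for Mcm7, -0.060 for Ube2c and -0.076 for Top2a, and within the higher series 0.042 for Wee1, -0.0018 for Chek1 and 0.19 for Cdt1. With counts summed over shared title numbers they were -0.054 for Chek1 and -0.0015 for Ube2c, with quality weights -0.076 for Chek1, -0.031 for Ube2c and -0.17 for Top2a, and with upper-quartile factors -0.0033 for Chek1. With each tumour left out in turn, Chek1 ranged from -0.13 (without sgControl replicate 6) to 0.12, and was -0.069 without sgKdm6a replicate 2. Ube2c ranged from -0.049 (without sgControl replicate 6) to 0.19, and was -0.018 without sgKdm6a replicate 4. Top2a ranged from -0.12 (without sgControl replicate 6) to 0.22, and Wee1 from -0.29 to 0.021 (without sgControl replicate 2).

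No member passed an adjusted p of 0.05 under any of the 28 alternatives. Members higher at an unadjusted p under 0.05 numbered 0 with upper-quartile factors, the tissue term, the Y-linked term, within each series and with summed counts, 2 with title series as a term, and 0 to 3 with each tumour left out. Members above 0 numbered 14 with the tissue term. Over all genes, DESeq2 called 83. Genes higher at an unadjusted p under 0.05 numbered 1175 without a filter and 1016 with DESeq2. Genes lower numbered 2087 without a filter, 603 with the tissue term, 417 with the Y-linked term, 386 within the lower series, 574 with summed counts, 437 with the correlation of shared numbers, and 520 and 594 on log2(FPKM + 1) and log2(FPKM + 0.1). They numbered 469 without sgControl replicate 6, and 925 to 1327 with any other single tumour left out. The median correlation between members was 0.38 by Spearman and 0.15 without sgControl replicate 6. No paired analysis was possible because the labels give the groups no shared replicate numbers. Counts of at least 273 per member make counting error small beside the spread between tumours.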
